A study of Mus musculus with 4 samples.

Results

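The loci described here are 10 genes that encode integrin subunits of blood cells: Itgam, Itgax, Itgal, Itgb2, Itga2b, Itgb3, Itga4, Itga6, Itgb1 and Itgb7. They were chosen by name from 21755 annotated protein-coding genes, and every accessible chromatin peak that overlapped a gene body or the 10 kb on each side of it was taken. The wild-type (WT) list held 25 such peaks of 37887, and the Med23-deficient (KO) list held 25 of 37615. The windows of Itgam and Itgax, which are neighbours on chromosome 7, overlap, so the 10 genes made 9 separate windows. No peak region (0 regions) fell in more than 1 window.

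Open chromatin was mapped by ATAC-seq, a method that tags accessible DNA with adapters carried by a transposase. The cells were hematopoietic stem cells (HSCs) of adult C57BL/6 mice, sorted from bone marrow. The labels give the gate as LSK cells that were CD150+, CD34- and CD48-, whereas the study's ATAC-seq methods name no CD34 gate. All mice carried floxed Med23, the gene of a subunit of the Mediator complex that links transcription factors to RNA polymerase II. The WT mice had no cre, whereas the KO mice also carried Mx1-cre, a transgene that interferon switches on in many cell types and that the study induced with poly(I:C). The peak lists hold no reads over the floxed exons, so the deletion could not be checked here. Whether the mice used for ATAC-seq as WT controls also received poly(I:C) is not given in the sources used here. Each genotype had 2 samples, but the labels of both name the same peak list. There was thus 1 list per genotype, no spread between replicates and no test, and every interval below covers counting error only.

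Integrins are receptors made of 1 alpha and 1 beta chain that hold cells to matrix, to vessel walls and to each other. The beta 2 chain (Itgb2) pairs with Itgal, Itgam or Itgax to form the adhesion receptors of leukocytes, of which Mac-1 (Itgam with Itgb2) is a widely used marker of myeloid cells. The product of Itga2b (CD41) pairs with that of Itgb3 to form the fibrinogen receptor of platelets, and CD41 is also found on megakaryocyte progenitors and some stem cells. The alpha 4 chain (Itga4), with Itgb1 or Itgb7, and the alpha 6 chain (Itga6), with Itgb1, serve in the homing and retention of stem and progenitor cells in marrow.

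The sequences below carry the peaks on which most of the results turn. Each is 200 bp of mm10 around a summit, the base where the reads of a peak stack highest, printed 5′ to 3′ in the direction of transcription of the integrin gene. Capitals mark a match, on either strand, to 1 of 7 short motifs of blood transcription factors that are spelled out with their counts further on. The Itgam, Itga2b, Itgb3 and Itgb2 sequences follow a rule for the strongest peak at or nearest the start site and the strongest peak in each list only. The Itga4 and Itga6 sequences were added after their values were seen, because these summits differed most between the lists.
Itgam upstream, KO list (chr7:128059263-128059462, plus strand): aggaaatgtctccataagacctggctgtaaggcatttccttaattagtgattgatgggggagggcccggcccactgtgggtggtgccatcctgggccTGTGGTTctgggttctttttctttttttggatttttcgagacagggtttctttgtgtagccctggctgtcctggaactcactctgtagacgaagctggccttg
Itga2b start, KO list (chr11:102470163-102470362, minus strand): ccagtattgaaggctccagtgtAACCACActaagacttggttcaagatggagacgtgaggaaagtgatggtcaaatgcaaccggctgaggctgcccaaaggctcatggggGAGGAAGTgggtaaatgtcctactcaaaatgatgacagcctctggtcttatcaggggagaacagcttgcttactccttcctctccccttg
Itgb3 intron 5, WT list (chr11:104637181-104637380, plus strand): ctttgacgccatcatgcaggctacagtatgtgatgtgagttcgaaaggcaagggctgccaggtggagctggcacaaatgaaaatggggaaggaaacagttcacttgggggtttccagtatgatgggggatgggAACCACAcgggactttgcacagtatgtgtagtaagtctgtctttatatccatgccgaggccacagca
Itgb2 intron 1, KO list (chr10:77540868-77541067, plus strand): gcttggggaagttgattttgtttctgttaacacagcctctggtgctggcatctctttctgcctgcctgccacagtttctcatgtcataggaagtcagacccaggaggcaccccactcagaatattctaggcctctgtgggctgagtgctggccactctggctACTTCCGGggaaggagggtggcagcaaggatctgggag
Itga4 start, KO list (chr2:79255231-79255430, plus strand): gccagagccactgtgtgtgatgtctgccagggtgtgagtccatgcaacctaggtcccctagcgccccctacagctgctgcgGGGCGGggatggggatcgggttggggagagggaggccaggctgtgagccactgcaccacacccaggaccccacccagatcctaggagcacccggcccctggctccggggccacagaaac
Itga6 intron 1, KO list (chr2:71814110-71814309, plus strand): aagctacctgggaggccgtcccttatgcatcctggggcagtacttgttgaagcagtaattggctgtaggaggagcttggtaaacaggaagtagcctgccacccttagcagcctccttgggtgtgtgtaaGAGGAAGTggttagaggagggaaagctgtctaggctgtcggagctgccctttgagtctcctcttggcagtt
The Itgam sequence holds 1 RUNX match, the Itga2b sequence 1 PU.1 and 1 RUNX match, the Itgb3 sequence 1 RUNX match and the Itgb2 sequence 1 ETS match. The Itga4 sequence holds 1 SP1 match and the Itga6 sequence 1 PU.1 match.

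Across the 10 loci the WT and KO lists were alike in number of peaks and in extent. Overlapping peaks of the lists were joined into 30 regions, of which 20 were shared by both lists, 5 were found in WT alone and 5 in KO alone. The shared regions made up 66.7% (95% Wilson interval 48.8 to 80.8%) of the integrin regions, beside 64.8% of 45475 regions genome-wide. Each single-list class made up 16.7% (7.34 to 33.6%), beside 18.1% for WT only and 17.2% for KO only genome-wide. The peaks covered 20681 bp of the integrin windows in the WT list and 19663 bp in the KO list, a KO to WT ratio of 0.951, and the ratio over the entire lists was 0.985. All of these values lay near those of the genome as a whole. Of the choices tried, 1 lowered the shared share to 43.3%, the demand that summits lie within 100 bp of each other. The share over all regions was not computed under that demand. The ratio of covered bases turned above 1 when weaker peaks were left out, to 1.07 and 1.31 at a minimum −log10 q of 5 and of 10. The ratio over the entire lists was not computed at these minimums. Since the DNA came from sorted cells in bulk, a peak carried by fewer cells and a peak less open in every cell cannot be told apart.

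**Figure D1:**
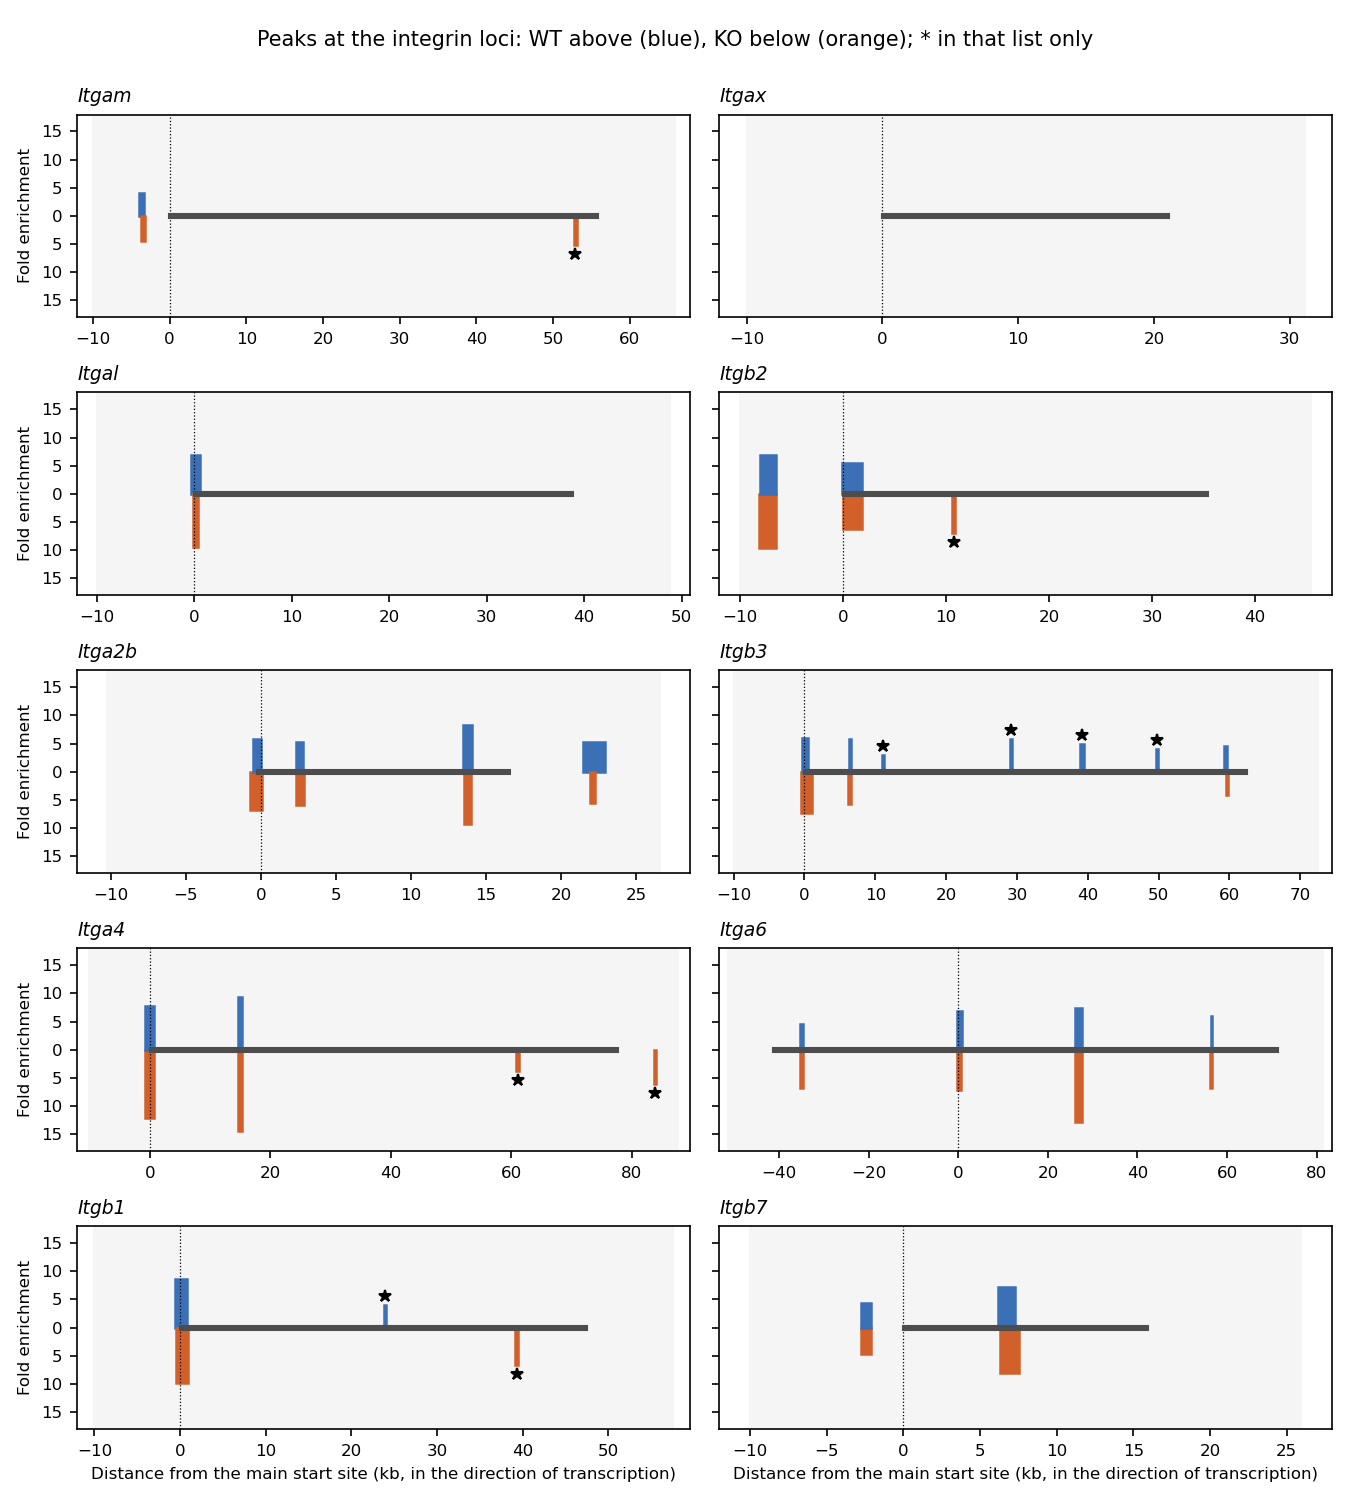
Peaks in the windows of the 10 integrin genes, drawn by distance in kb from the main start site (dotted line) in the direction of transcription, with WT peaks above and KO peaks below the gene (grey bar), height as the authors' fold enrichment and stars on peaks in 1 list only. All 4 stars in the Itgb3 panel lie on the WT side, both stars of Itga4 lie on the KO side, and Itgax has no peak in either list.

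By locus, the bases covered by peaks were more in the KO list at 5 genes (Itgam, Itgb2, Itga4, Itgb1 and Itgb7), fewer at 4 (Itgal, Itga2b, Itgb3 and Itga6) and 0 in both lists at Itgax. Of the 16862 protein-coding genes with covered bases in either list, 49.2% gained and 50.6% lost bases from WT to KO. The order of the loci in the WT list ran from Itga6 (3696 bp), Itgb2 (3460 bp), Itgb3 (3318 bp) and Itga2b (3139 bp) through Itga4 (2132 bp), Itgb7 (1825 bp), Itgb1 (1601 bp) and Itgal (942 bp) to Itgam (568 bp). In the KO list Itgb2 came first with 3736 bp, followed by Itga6 with 3567 bp and Itga4 with 2930 bp. With 50 kb on each side the differences at Itgb1 and Itgb7 turned to −319 and −411 bp and that at Itga6 to 53 bp. Only at Itgal did the lists differ by 1.5 times or more, with the larger value in WT, and 13.4% of genes reached that limit in the same direction and 10.5% in the other.

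**Figure D2:**
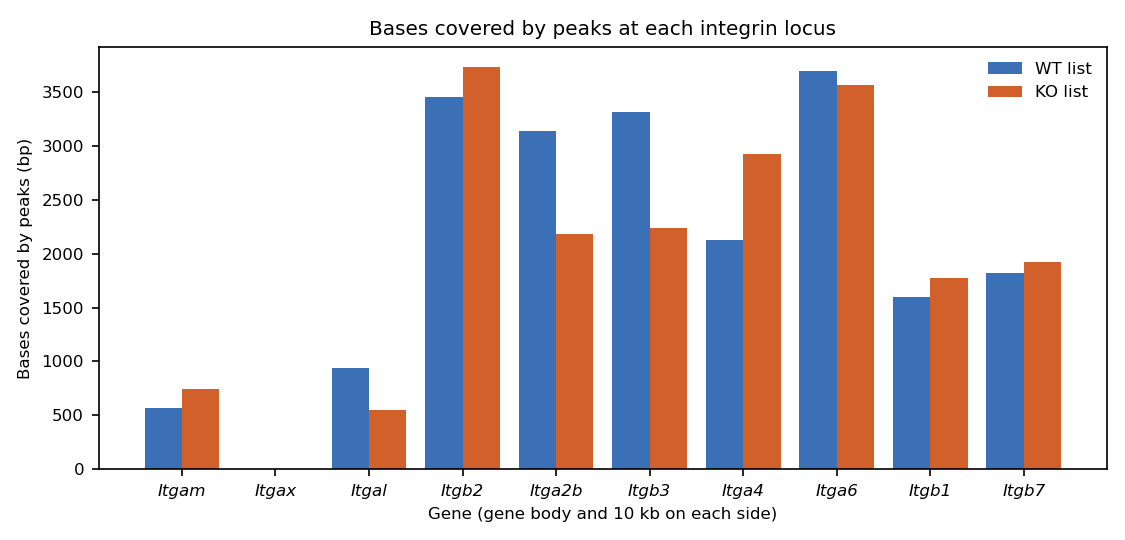
Bases covered by peaks (bp, linear axis from 0) in the window of each integrin gene, with 1 bar per list and no error bar because there was 1 list per genotype. The KO bar is the shorter at Itgal, Itga2b, Itgb3 and Itga6, and Itgax has no bar.

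A second measure was the height of a peak. The authors' fold enrichment is the pileup of reads at the summit over the local background, with a small constant added to both. The whole-number pileup behind it was recovered from the fold enrichment and the −log10 p of each peak. The KO to WT ratio of a shared region is given on the log2 scale, with each pileup first divided by the lowest background of its own list (1.19 in WT and 1.13 in KO), a scaling that by itself adds 0.09. Over the 20 shared integrin regions the median log2 ratio was 0.10, with a range of −0.38 to 0.69, beside a median of 0.17 over 28909 shared regions genome-wide. The ratio was above 0 in 13 of 20, beside 65.6% of all shared regions. Raw pileups were larger in the KO list in 10 regions (beside 54.6% of all shared regions), smaller in 7 (beside 38.9%) and equal in 3. The fold enrichment was larger in the KO list in 18 of 20, beside 77.5% of all shared regions, and the local background was lower in the KO list in 18 of 20, beside 81.6%. The median log2 ratio of fold enrichment was 0.19 at the integrin loci and 0.26 over all shared regions.

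Of the 20 shared regions, 2 were at least 1.5-fold higher in the KO list and 0 were as much lower, while 14.9% of all shared regions were past this limit upwards and 3.66% downwards. The limit is 0.58 on the log2 scale. Just inside it were the start site of Itga4 (0.66) and intron 1 of Itga6 (0.69), and just outside it were intron 2 of Itga4 (0.57), the distal region of Itga6 (0.57) and the start site of Itgal (0.53). The binomial interval excluded 0 in 1 of the 20, the Itga4 start site, beside 5.45% of all shared regions with an interval above 0 and 0.377% with one below 0. None (0) of the 20 was past the limit once the ratios were centred on the median of all shared regions, a setting at which 7.63% of all shared regions were past it upwards and 7.91% downwards. The SD of the log2 ratio was 0.31 over the integrin regions and 0.42 over all shared regions.

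**Figure D3:**
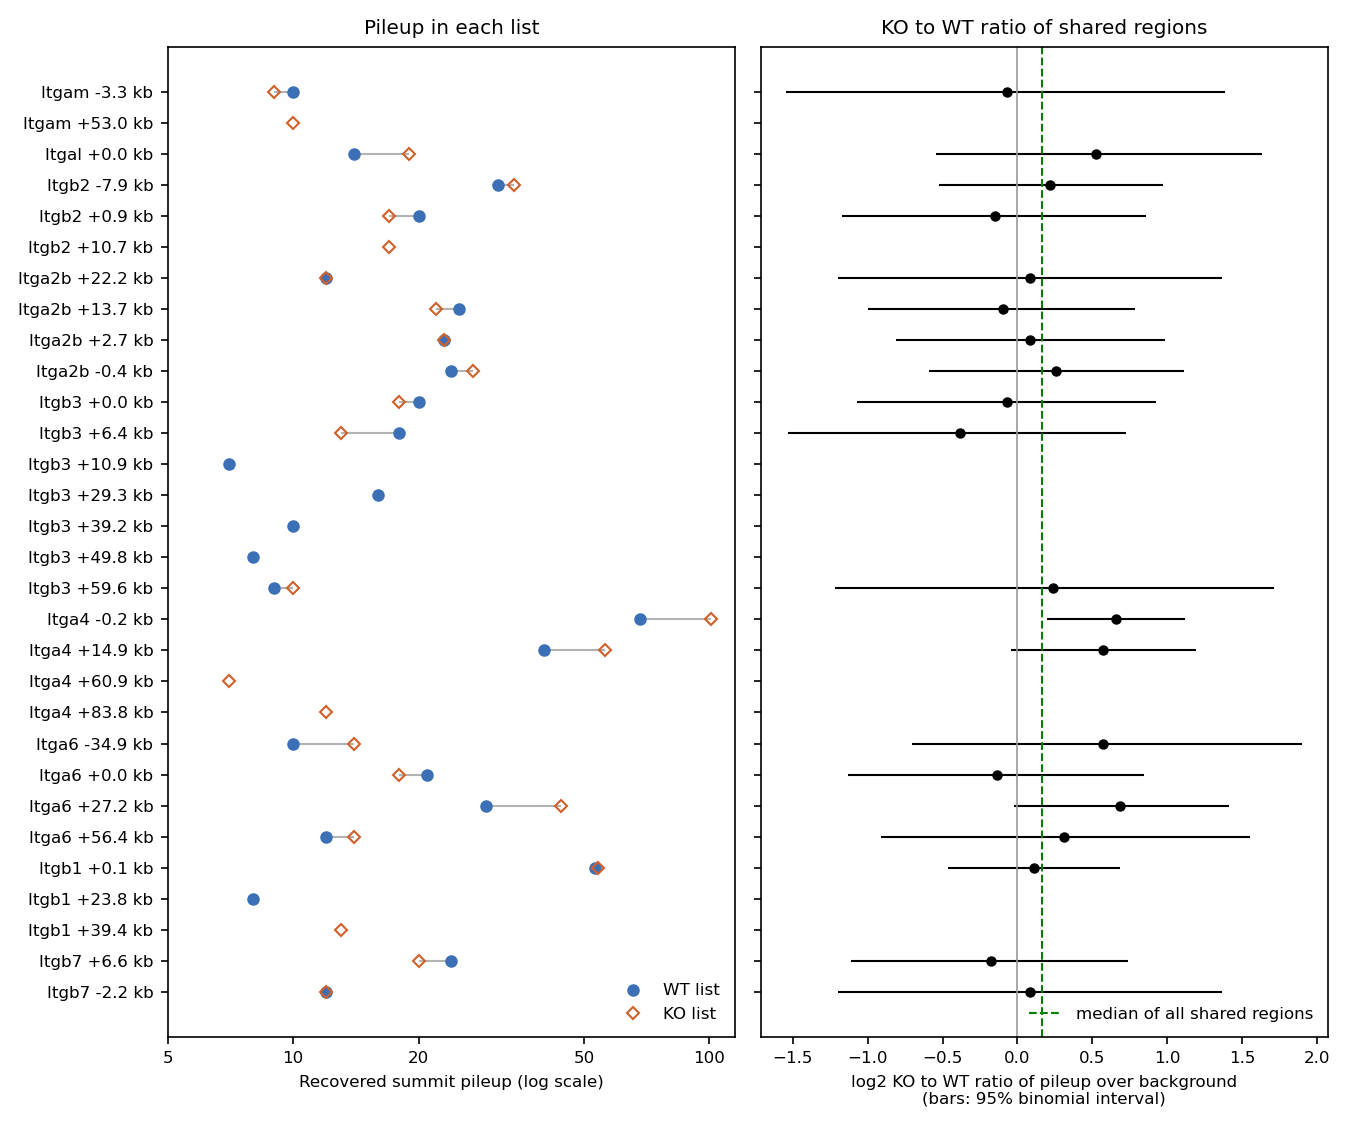
Left, the summit pileup in the WT list (filled circles) and the KO list (open diamonds) for each of the 30 integrin regions on a log axis, labelled by gene and distance from its main start site. Right, the log2 KO to WT ratio of the 20 shared regions with 95% binomial intervals, where the bar of the Itga4 start site alone lies wholly above 0 and the dashed line marks the median of all shared regions at 0.17.

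Itgam and Itgax, the alpha chains of myeloid cells, had the lowest maximum of fold enrichment among the 10 loci (4.04 in WT and 5.18 in KO at Itgam) or no peak at all. Itgam (ENSMUSG00000030786.18, mm10, chr7:128062640-128118491, plus strand) had no peak over its start site in either list. The nearest peak had its summit upstream, 3436 bp from the start in the WT list and 3306 bp in the KO list. Its pileup was 10 in WT and 9 in KO, and its fold enrichment 4.04 in WT and 4.52 in KO, which placed it in percentile 11.4 of the WT list and 13.5 of the KO list. The log2 ratio of −0.07 (95% interval −1.54 to 1.39) did not fix a direction at these pileups, and 59.9% of the bases of the KO peak were soft-masked repeats. A peak in the KO list only lay in intron 24 of Itgam, with a pileup of 10 and a fold enrichment of 5.18, and its summit was 748 bp from the start site of the neighbouring gene model Gm49368. That peak alone made the covered bases at Itgam larger in the KO list, 747 bp against 568 bp, and without it the difference turned to −99 bp.

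Itgax (ENSMUSG00000030789.9, chr7:128129547-128150657, plus strand), which encodes CD11c of dendritic cells and macrophages, had no covered base in either list, as did 22.5% of protein-coding genes. The smallest pileup of any peak was 6 in both lists, so weaker accessibility at Itgax would not have been listed.

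Itgal and Itgb2, whose products form LFA-1, each had a peak at the start site in both lists. At Itgal (ENSMUSG00000030830.18, chr7:127296260-127335138, plus strand) this was the sole peak. The WT peak was the broader, 942 bp against 553 bp, whereas the KO peak was the higher, with a pileup of 19 against 14 and a fold enrichment of 9.41 against 6.83. The log2 ratio was 0.53, and its interval of −0.55 to 1.63 included 0. Width and height therefore pointed in opposite directions at Itgal, where at a minimum −log10 q of 10 the KO peak alone was left, and the summit windows of both lists held the PU.1 motif.

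Itgb2 (ENSMUSG00000000290.13, chr10:77530252-77565708, plus strand), the common beta chain of these receptors, had shared peaks on both sides of its start. The upstream region, with summits 7804 bp (WT) and 7875 bp (KO) before the start, had pileups of 31 in WT and 34 in KO, fold enrichments of 6.91 and 9.65 and a log2 ratio of 0.22 (−0.53 to 0.97). The region that reached from an annotated start into intron 1 had pileups of 20 in WT and 17 in KO, fold enrichments of 5.39 and 6.16 and a log2 ratio of −0.15 (−1.17 to 0.86). Deeper in intron 1, 10716 bp from the start, the KO list alone had a peak with a pileup of 17 and a fold enrichment of 7.01, the strongest of the 5 KO-only integrin peaks. The nearest WT peak was 8729 bp away from it. This peak accounted for the larger coverage in the KO list, 3736 bp against 3460 bp, since both shared regions together were not broader in KO.

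Itga2b and Itgb3, the platelet receptor genes, both lie on chromosome 11, and both had fewer covered bases in the KO list. Itga2b (ENSMUSG00000034664.13, chr11:102453297-102470122, minus strand) had 4 regions, all of them in both lists. At its start site the pileup was 24 for WT and 27 for KO, the fold enrichment 5.83 and 6.74, and the width 523 bp and 815 bp. The log2 ratio there was 0.26 (−0.59 to 1.11). In intron 4 the pileup was 23 in both lists, and in intron 27 it was 25 in WT and 22 in KO, with log2 ratios of 0.09 and −0.10. The remaining region lay past the 3′ end of Itga2b, at the start of Fam171a2, where the pileup was 12 in both lists but the peak spanned 1464 bp (WT) and 374 bp (KO).

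Most of the lower coverage of Itga2b in the KO list lay at the Fam171a2 start. With that region, 3139 bp were covered in WT and 2184 bp in KO, and without it 1675 bp (WT) and 1810 bp (KO), which turned the difference from −955 bp to 135 bp. Within the gene body alone, which also leaves that region out, the KO list remained lower, with 1407 bp (WT) and 1288 bp (KO), a difference of −119 bp. No pileup ratio at Itga2b passed 1.5-fold in either direction.

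Itgb3 (ENSMUSG00000020689.4, chr11:104608000-104670476, plus strand) held 4 of the 5 regions found in the WT list only. They lay in introns 1, 5, 10 and 10, at 10937, 29281, 39247 and 49816 bp from the start, with pileups of 7, 16, 10 and 8. Their fold enrichments were 2.92, 5.87, 5.01 and 4.10. No KO peak was nearer to any of them than 4280 bp. By fold enrichment they stood at percentiles 0.492, 41.7, 29.4 and 13.9 of the WT list. The 5 WT-only integrin peaks had pileups of 7 to 16 and a median percentile of 13.9 in the WT list. The KO-only peaks, none of which lay at Itgb3, had pileups of 7 to 17 and a median percentile of 35 in the KO list.

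The 3 shared regions of Itgb3 differed less. At the start site the pileup was 20 in WT and 18 in KO, whereas the peak spanned 816 bp (WT) and 1508 bp (KO). In intron 1, 6296 bp (WT) and 6390 bp (KO) from the start, pileups of 18 in WT and 13 in KO were recorded, which gave the lowest log2 ratio of all integrin regions, −0.38 (−1.53 to 0.73). In exon 15 it was 9 in WT and 10 in KO. The locus as a whole had 3318 bp covered in WT and 2237 bp in KO, and this difference of −1081 bp became 348 bp once peaks whose −log10 q was under 5, among them 3 of the 4 WT-only peaks, were left out.

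Itga4 (ENSMUSG00000027009.18, chr2:79255426-79333123, plus strand), the alpha chain of VLA-4, had the highest summits of the 10 loci and the 1 shared region whose interval excluded 0. At its start site the pileup was 68 for WT and 101 for KO and the fold enrichment 7.71 and 12.1. The KO to WT ratio was 1.58-fold (log2 ratio 0.66, interval 0.20 to 1.12), in percentile 88.7 of all shared regions. In intron 2, 14933 bp (WT) and 14905 bp (KO) from the start, the pileup was 40 for WT and 56 for KO, the fold enrichment 9.37 and 14.4, and the log2 ratio 0.57 (−0.04 to 1.19). The widths hardly differed, 1456 bp against 1578 bp at the start and 676 bp against 681 bp in the intron. Both GATA motifs of the Itga4 locus, 1 per list, lay in the intron 2 region.

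The KO list also had both single-list regions of Itga4. One lay in intron 21 with a pileup of 7 and a fold enrichment of 3.76. The other, with a pileup of 12 and a fold enrichment of 6.12, lay past the 3′ end, and its summit was 659 bp from the start of Cerkl. With them, 2930 bp were covered in KO and 2132 bp in WT, the largest gain among the 10 loci (798 bp). The size of this gain depended on what was counted. It was 500 bp without the peak near Cerkl, 388 bp in the gene body alone and 192 bp with 50 kb on each side. At a minimum −log10 q of 5 and of 10 it was 425 bp and 127 bp.

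Itga6 (ENSMUSG00000027111.15, chr2:71745616-71858416, plus strand) had 4 regions, each in both lists. Its main start lies 41362 bp into the longest gene model, and the region there had a pileup of 21 in WT and 18 in KO, with a log2 ratio of −0.14 (−1.13 to 0.84). In intron 1, 27174 bp (WT) and 27232 bp (KO) further on, the pileup was 29 in WT and 44 in KO and the fold enrichment 7.38 and 12.8. That log2 ratio of 0.69 (−0.02 to 1.42) was the highest of the 20 shared integrin regions, a ratio of 1.61-fold. The distal region, inside the gene model but 35115 bp (WT) and 34912 bp (KO) before the main start, had pileups of 10 and 14, and intron 20 had 12 and 14. The start site and the intron 1 region of Itga6 therefore differed in the direction of their ratios, with intervals that both included 0. Peaks covered 3696 bp (WT) and 3567 bp (KO) of the Itga6 window, a difference that turned to 539 bp at a minimum −log10 q of 5.

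At the beta chains that pair with Itga4, the interval of every shared region included 0. Itgb1 (ENSMUSG00000025809.15, chr8:128685654-128733200, plus strand) had a pileup of 53 in WT and 54 in KO at its start site, fold enrichments of 8.71 and 9.89 and a log2 ratio of 0.11 (−0.46 to 0.69). A WT-only peak in its intron 3 had a pileup of 8, and 77.1% of its bases were soft-masked repeats. A KO-only peak in intron 14 had a pileup of 13, with its summit 676 bp from an alternative start of Itgb1. Peaks covered 1601 bp (WT) and 1780 bp (KO) of the Itgb1 window.

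Itgb7 (ENSMUSG00000001281.10, chr15:102215995-102231944, minus strand), a beta chain of gut-homing lymphocytes, had 2 shared regions and no peak over its start. The pileup in intron 2 was 24 in WT and 20 in KO, with a log2 ratio of −0.18 (−1.11 to 0.74). Before the start, at 2468 bp in WT and 2165 bp in KO, it was 12 in both lists, with the summits 303 bp apart, the largest such shift among the shared integrin regions (median 72.5 bp). Peaks covered 1825 bp (WT) and 1929 bp (KO) of the Itgb7 window.

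Taken by position, peaks covered an annotated start of the same 7 genes in each list: Itgal, Itgb2, Itga2b, Itgb3, Itga4, Itga6 and Itgb1. Of the 8 regions with a summit near a start of their own integrin gene, 7 were shared and 1 was in the KO list only. The 19 regions away from any start comprised 12 shared, 5 WT-only and 2 KO-only regions, and 2 of the 3 regions near the start of another gene were in the KO list only. Shares over all regions were not computed for these classes of position, so the counts are a description only. By pileup at the start site, Itga4 (68) and Itgb1 (53) came first in WT, followed by Itga2b (24), Itga6 (21), Itgb2 (20), Itgb3 (20) and Itgal (14), and in KO, Itga4 (101) and Itgb1 (54) again came before the other 5, which had 17 to 27. By fold enrichment the WT order differed, with Itgb1 (8.71) before Itga4 (7.71) and with Itgal (6.83) and Itga6 (6.83) next. The local background in WT was 7.95 at the Itga4 summit, 5.20 at that of Itgb1 and lower at the other 5.

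Motifs were sought on either strand of the 200 bp centred on every summit. The GATA factors of stem cells and megakaryocytes were represented by the letters AGATAA and the myeloid factor PU.1 by GAGGAAGT. The wider ETS family, to which PU.1 belongs, had CCGGAAGT, whose last letters are those of the PU.1 motif. Other factors had TGTGGTT for RUNX, TTGCNNAA for C/EBP, TGANTCA for AP-1 and, lastly, GGGCGG for SP1. RUNX was found in 5 of 25 integrin peaks of the WT list (20%, against 9.14% of all WT peaks) and in 6 of 25 of the KO list (24.0%, against 9.35%). PU.1 was found in 4 WT peaks (16.0%, against 6.14%) and 5 KO peaks (20%, against 6.89%), and GATA in 5 WT peaks (20%, against 8.56%) and 4 KO peaks (16.0%, against 8.44%). Of the 4 WT-only Itgb3 peaks, 3 held RUNX and 1 held GATA. C/EBP was found in 0 WT and 1 KO integrin peaks, beside 7.82% and 7.64% of all peaks, and AP-1 in 0 of either list, beside 7.72% and 7.93%. ETS was found in 0 WT peaks and 1 KO peak, beside 2.36% and 2.33%, and SP1 in 6 WT (24.0%, against 26.4%) and 7 KO peaks (28.0%, against 26.7%). Peaks of shared regions count in both lists and several lie in the same gene, so these shares are a description of a small set.

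Other genes of the integrin pathway were read from 3 lists, of other subunits, of activation and signalling genes and of ligands. Of 16 other integrin subunits, 7 gained covered bases from WT to KO, 7 lost them and 2 (Itgad and Itga11) had none in either list. Over all protein-coding genes with covered bases, 49.2% gained and 50.6% lost. The median difference of these subunits was 4 bp. The largest gains were at Itga5 (578 bp), Itga1 (440 bp) and Itgav (425 bp), whose products bind fibronectin, collagen and vitronectin respectively. The largest losses were at Itga2 (−1205 bp), a collagen receptor of platelets, Itgb5 (−731 bp) and Itga9 (−438 bp). Their shared regions numbered 63.1% of 65 (beside 64.8% of all regions), and their median log2 ratio was 0.09 (beside 0.17 over all shared regions). Of 41 regions with a ratio, 1 was at least 1.5-fold higher in KO (beside 14.9% of all shared regions) and 3 as much lower (beside 3.66%).

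Of 20 genes of integrin activation and signalling, 14 gained covered bases from WT to KO and 6 lost them, beside 49.2% and 50.6% of all protein-coding genes with covered bases. The median difference was 297.5 bp, beside −6 bp over all protein-coding genes with covered bases. Coverage at Parvb, a parvin at integrin tails, went from 1707 bp (WT) to 2878 bp (KO). Tln1, the talin that activates integrins, had 2321 bp and 3316 bp, and Parvg had 7 bp and 927 bp. Peaks were cut at the window edge and the narrowest WT peak spanned 224 bp. The 7 bp at Parvg are therefore the edge of a WT peak that lay mostly outside the window. The largest losses were at the adaptor Skap2 (3000 bp for WT and 2072 bp for KO), the integrin inhibitor Sharpin (2338 bp and 1470 bp) and the Rap1 effector Rassf5 (3595 bp and 2995 bp). Both lists shared 68.4% of the 95 regions of these genes, beside 64.8% of all regions. Among 63 shared regions with a ratio, 9 were at least 1.5-fold higher in KO (beside 14.9% of all shared regions) and 3 as much lower (beside 3.66%). Their median log2 ratio was 0.24, beside 0.17 over all shared regions.

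Of 9 integrin ligands, 6 gained and 3 lost covered bases (beside 49.2% and 50.6% of all genes with covered bases), with a median of 513 bp. Both lists shared 56.0% of their 25 regions, beside 64.8% of all regions. Among 14 regions with a ratio, 3 were at least 1.5-fold higher in KO and 1 as much lower, beside 14.9% and 3.66% of all shared regions. Their median log2 ratio was 0.23, beside 0.17 over all shared regions. Spp1 (osteopontin) had 704 bp (WT) and 1770 bp (KO), the complement component C3 had 1513 bp and 2197 bp, and Vwf, a platelet ligand also made by megakaryocytes, had 3450 bp and 3994 bp. Vcam1, the ligand of VLA-4, had 813 covered bp in WT and none in KO, and Thbs1 and Icam2 had 329 bp and 305 bp fewer in KO.

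**Figure D4:**
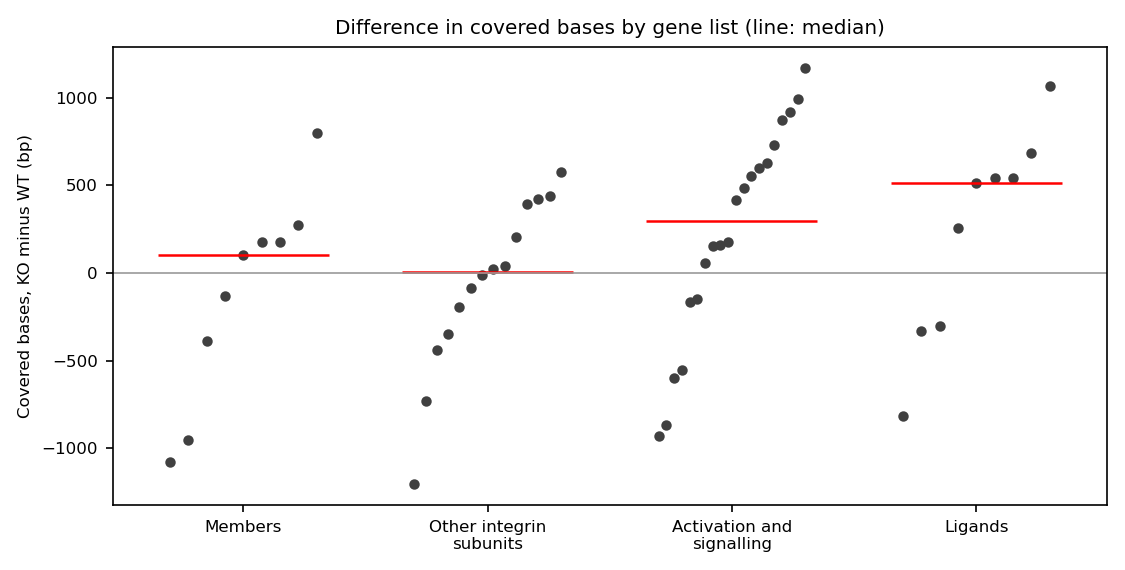
Difference in bases covered by peaks (KO minus WT, bp) for each gene with covered bases in the 10 integrin loci and in the lists of other subunits, activation and signalling genes and ligands, with 1 point per gene and a red line at the median of each list. The medians are 104 bp for the 9 loci with covered bases, 4 bp, 297.5 bp and 513 bp.

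Markers of the cell types that the sort could hold were read as peaks within 1 kb of their start sites. Of 8 stem cell markers, 5 had such a peak in both lists, with summed pileups of 165 in WT and 184 in KO, while Ly6a, Procr and Slamf1, which encodes the CD150 of the sort, had none in either. Of 9 granulocyte and monocyte markers, 5 had one in WT (summed pileup 54) and 2 in KO (29). S100a8, S100a9 and Ltf, with pileups of 9 to 11, had theirs in WT only, Lyz2 had a pileup of 9 in WT and 15 in KO, and Cd14 had 15 and 14. Neither list had one at Elane, Mpo, Ngp or Csf1r. Of 4 megakaryocyte markers, 2 had one in WT (59) and 3 in KO (88), with Gp9 in KO only and Ppbp in neither. Such a peak was found at 0 of 3 B cell and 0 of 4 T cell markers in either list. The part of these markers in the results at Itgam, Itga2b and Itgb3 was not tested.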

How the data were processed

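ATAC-seq peak lists of WT and KO HSCs, 1 per genotype, were compared at the 10 integrin genes. The authors state that reads were trimmed (Trim Galore) and mapped to mm10 (Bowtie2), that duplicate and mitochondrial reads were discarded (Picard) and that MACS2 called the peaks without a fragment model. Versions, the extension size and whether the replicates of a genotype were pooled are not given in the sources used here. Each deposited list still held 2 mitochondrial peaks.

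The deposited peaks give the authors' fold enrichment, a ratio of summit pileup to local background with a small constant added to both. They also give −log10 values of p and q at the summit, and a display score that the authors' caller made from the −log10 q. The score was not used. The lists hold no read counts, so the depth of each sample is unknown.

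Peaks on 20 chromosomes (19 autosomes and X) entered. GENCODE genes of the same build gave the windows (gene body and 10 kb on each side). Peaks that overlapped by at least 1 bp formed a region. Pileup and local background were solved from fold enrichment and −log10 p under the caller's Poisson model. A whole-number pileup matched within 0.001 for 99.99% of peaks in each list. The lowest background of a list is the median over its 1000 peaks with the smallest values. Ratios use regions with 1 peak of each list, with exact 95% binomial intervals and no pseudocount. Pileups are not independent molecules, and regions are not replicates. With 1 list per genotype, a region past 1.5-fold was counted and nothing was tested. The scripts were tested on simulated data (Python 3.11.15, numpy 2.4.6, pandas 2.3.3, scipy 1.17.1, statsmodels 0.14.6).

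The genes and lists were chosen with earlier results of these data known. The genes named are the 10 integrin genes, up to 3 genes with the largest difference in each direction from each further list, the marker genes, and genes whose start lies within 1 kb of a peak in an integrin window. Alternatives changed the window, the −log10 q minimum, the overlap that counts as shared, the scaling, and the use of peaks at starts of other genes. A further marker list is not reported here.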

Additional observations from a re-analysis of the deposited data

How the results depend on the processing

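No paired analysis was possible because the lists hold no values per replicate, which also kept single replicates from being left out. The cause of the changes below was not tested. The share of integrin regions in both lists, 66.7%, was 60.0 to 72.7% under the other alternatives but 43.3% when summits had to lie within 100 bp of each other. For the 60.0% (overlap of at least 50% of both peaks) and the 43.3%, the share over all regions was not computed. At a minimum −log10 q of 5 the share was 72.7%, beside 69.1% of all regions, and at 10 it was 69.2%, beside 69.3%. Without peaks at starts of other genes it was 70.4%, beside 54.4%. That setting kept the start peaks of the integrin genes but dropped those of all other genes, so its 2 shares are not alike. The KO to WT ratio of covered bases, 0.951, was 0.966 for gene bodies alone, 0.946 with 50 kb on each side and 0.974 without peaks at starts of other genes, but 1.07 and 1.31 once a minimum −log10 q of 5 and of 10 was set. Under those minimums 7 loci in place of 5 had more covered bases in KO. Neither this count nor the ratio was computed genome-wide at those minimums. The median log2 ratio, 0.10, was −0.0678 after centring on all shared regions. The 2 of 20 regions past 1.5-fold became 5 of 44 with 50 kb on each side, 1 of 20 with raw pileups and 0 of 20 after centring. All of them were higher in KO. Of all shared regions, 14.9% were past the limit upwards at either window, 11.3% with raw pileups and 7.63% after centring. Of 50 differences in covered bases recomputed for single genes, 10 changed sign. Itgal changed from −389 to 553 bp at the minimum of 10, Itga2b to 624 bp there and to 135 bp without starts of other genes, Itgb3 to 348 and 1508 bp at the minimums of 5 and 10, and Itgam to −99 bp without starts of other genes. With 50 kb on each side Itga6 became 53, Itgb1 −319 and Itgb7 −411 bp, and Itga6 became 539 bp at the minimum of 5. The unknown depth limits every single-list peak, as the smallest pileup listed was 6.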

Other observations

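Between 10 and 50 kb from the integrin genes lay a further 30 WT and 29 KO peaks. They were looked at after the values of the loci themselves were known. Upstream of Itgam, 13601 bp (WT) and 13691 bp (KO) before its start (chr7:128048780-128049380), a shared region had a pileup of 27 in WT and 44 in KO and a fold enrichment of 7.95 and 11.3. Its log2 ratio was 0.79 (95% binomial interval 0.07 to 1.54), beside 5.45% of all shared regions with an interval above 0. It was singled out after its values were seen, and no ratio is given for the other outer regions. It was not the largest relative rise among them. Pileups were 12 in WT and 21 in KO in an outer region of Itga4, 117075 bp (WT) past its start. They were 11 and 19 in a region 22282 bp (WT) before the start of Itgb1. Others were lower in KO, such as that at the Pdk1 start in the outer window of Itga6 (44 in WT and 28 in KO). A further peak, in the KO list only, lay 20010 bp before the start of Itgam with a pileup of 12 and a fold enrichment of 6.12. Upstream of Itgb1, 30668 bp (WT) and 30647 bp (KO) before its start, a shared region had a pileup of 56 in WT and 71 in KO, both larger than at the Itgb1 start itself.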
